A study of Homo sapiens with 6 samples.

Results

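ULBP3, ICAM1, CD58, CD48, CD70, CD276 and ICOSLG encode surface proteins through which a cell is recognised by natural killer (NK) cells and T cells. These 7 genes, of 14884 genes measured, were taken by name, and they had been singled out with their difference between ATRA and DMSO in these arrays already known. Their values in that comparison are therefore given as a description, without a p-value. RNA came from MM.1S, a human line of multiple myeloma, a cancer of antibody-secreting plasma cells, and was measured on 6 arrays. Every culture had first received a 1 h pulse of Cfz, which commonly stands for carfilzomib, a drug that blocks the proteasome. The cells were then kept for 12 h with 10 µM ATRA (all-trans retinoic acid, which activates retinoic acid receptors) in 3 samples, or with its solvent DMSO in 3 samples. Cells without Cfz were not analysed here, so each difference is one between ATRA and DMSO in cells already exposed to Cfz. MM.1S is a single line, and the labels do not say whether the 3 samples of a group were separate cultures. The SDs and p-values then measure only the spread between these samples, which may be technical.

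NK cells kill a target when signals from activating receptors outweigh those from inhibitory receptors. NKG2D is an activating receptor whose ligands, MICA, MICB and the ULBP proteins, appear on stressed, infected or transformed cells. ICAM1 and CD58 hold the contact with the killer cell, ICAM1 through the integrin LFA-1 and CD58 through CD2, and CD48 binds 2B4, the product of CD244. CD70, a ligand of the TNF superfamily, stimulates T cells through CD27, and ICOSLG, a protein of the B7 family, does so through ICOS. CD276, also called B7-H3, belongs to the same B7 family, and it has been studied mainly as an inhibitor of T and NK cells. The arrays measure transcripts, and protein on the cell surface was not measured.

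The promoters of 3 of the 7 genes are shown because they hold the gene with the largest difference (ULBP3), the other gene that was higher (ICAM1) and a lower gene whose promoter is of another composition (CD48). Each run ends at the base before the annotated start of the gene, is read on the strand of the gene and comes from RefSeq on GRCh38.p14. Capitals mark GC boxes (GGGCGG on either strand) in ULBP3 and CD48, and the NF-kappaB-type motif GGAANNTCC in ICAM1. ULBP3 lies at chr6:150069122-150069371 on the minus strand, ICAM1 at chr19:10270870-10271119 on the plus strand and CD48 at chr1:160711823-160712072 on the minus strand.
ULBP3: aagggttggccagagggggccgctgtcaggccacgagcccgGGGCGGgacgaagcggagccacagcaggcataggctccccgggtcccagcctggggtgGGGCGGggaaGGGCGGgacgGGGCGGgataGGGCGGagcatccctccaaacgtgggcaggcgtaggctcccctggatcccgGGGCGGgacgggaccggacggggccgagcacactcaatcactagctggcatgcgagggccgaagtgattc
ICAM1: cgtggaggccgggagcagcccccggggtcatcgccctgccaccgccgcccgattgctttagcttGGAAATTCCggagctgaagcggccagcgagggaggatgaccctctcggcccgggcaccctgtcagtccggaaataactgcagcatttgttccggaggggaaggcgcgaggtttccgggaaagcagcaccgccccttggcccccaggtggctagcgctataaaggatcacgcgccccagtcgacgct
CD48: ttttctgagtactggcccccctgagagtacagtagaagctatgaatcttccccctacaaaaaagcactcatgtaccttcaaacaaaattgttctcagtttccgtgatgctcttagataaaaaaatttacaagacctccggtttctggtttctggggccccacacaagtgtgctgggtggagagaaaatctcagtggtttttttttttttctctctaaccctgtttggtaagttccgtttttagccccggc
The ULBP3 run holds 6 GC boxes and the CD48 run 0, as its lack of capitals shows. ICAM1 holds 1 match to the NF-kappaB-type motif, whose first base is at position -186 from the start.

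RefSeq promoters were matched for 6 of the 7 genes, with CD276 at 2 starts, and CD70 had no entry in the table. The NF-kappaB-type motif, searched in the 250 bases before the start on both strands, was in 3.84% of all 35116 promoters and, among these genes, in that of ICAM1 alone. GC boxes were in 42.6% of all promoters and in those of ULBP3, ICAM1, CD58, ICOSLG and both of CD276, that is, in genes on both sides of the comparison. The nuclear receptor half-site AGGTCA (12.1% of all promoters) had no match in any of the 7 windows. GC content was 43.2% in the CD48 window and 66.0% to 80.8% in the other 6, against a median of 58.0% over all promoters. A match of letters is a description of the sequence and not a site of binding.

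The labelled cell type was checked against its markers. Of 7 measured plasma cell markers, SDC1, CD38, IRF4, XBP1, SLAMF7 and MZB1 had mean log2 intensities of 8.29 to 10.89 with DMSO, and FCRL5 was at 2.60. These markers moved with ATRA, but not all in 1 direction. Their summed intensity was 7128 to 7406 with DMSO and 9012 to 9345 with ATRA, and of the 7, 3 rose, 0 fell and 4 did not pass. Of those 4, MZB1 differed by 0.25 on the log2 scale, while IRF4 (-0.17), SLAMF7 (-0.31) and FCRL5 (-0.24) were lower. CD38, an ectoenzyme, rose by 1.95 on the log2 scale (limma adjusted p = 0.000145), SDC1, the proteoglycan CD138, by 0.84 (adjusted p = 0.00274) and XBP1, a transcription factor of secretory cells, by 0.54 (adjusted p = 0.0175, a call lost in all 6 fits with 1 array left out, at 0.0584 to 0.0758). The part of these markers in the differences of the 7 ligand genes was not tested. The 27 measured markers of T and NK cells, myeloid cells, mature B cells, epithelium and stroma ranged from 2.18 to 5.44 in group means, apart from the keratin KRT18 at 7.23 with DMSO. The median of all their group means was 3.68. Of these 27 markers 0 passed limma's test over all genes at an adjusted p of 0.05, and 2 had an unadjusted p under 0.05. Their summed intensity overlapped between groups in each list: 165 to 179 with DMSO and 158 to 180 with ATRA for 9 T and NK cell markers, 83.5 to 102 and 89.9 to 116 for 7 myeloid markers, 60.2 to 77.8 and 69.6 to 76.9 for 4 B cell markers, and 210 to 300.5 and 204 to 236 for 7 epithelial and stromal markers. Probe sets differ in how brightly they bind, so these levels are only a rough guide to the signal of a gene that is not expressed. Median intensity over all probe sets was 9.40 to 9.76 per array, and log2 values correlated at 0.990 to 0.992 within groups and 0.985 to 0.987 between them (a correlation over genes, which share each array and are no replicates). With 3 arrays a group, precision is limited by their number.

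After ATRA, ULBP3 and ICAM1 were higher and CD58, CD48, CD70, CD276 and ICOSLG were lower. ULBP3 differed by 4.82-fold, and the other 6 genes by 1.47-fold to 1.74-fold. For all 7 genes the ATRA and DMSO values were separate, as they were for 24.7% of all genes. All 7 passed an adjusted p of 0.05 in limma's test over all genes, where 3.80% of genes passed, 1.73% higher and 2.07% lower. The genes had been chosen on this same comparison, so nothing is read from that count. With 1 array left out, ULBP3 passed in each of the 6 fits, CD58 in 3, CD70 in 1 and ICAM1, CD48, CD276 and ICOSLG in 0. In RNA from whole cultures, a change in every cell and a change in a share of the cells cannot be told apart.

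**Figure D1:**
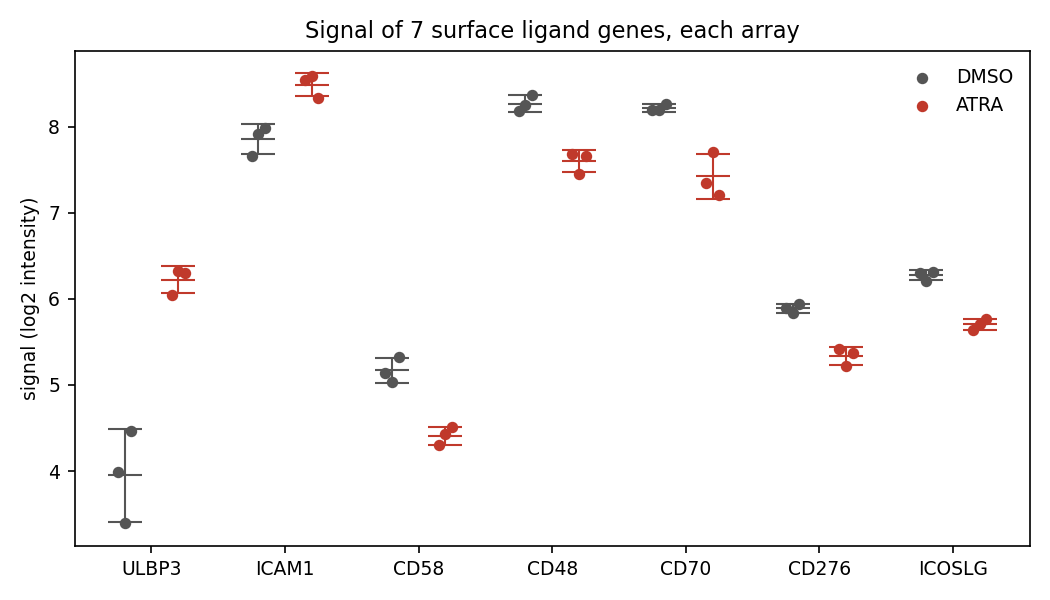
Signal of the 7 ligand genes on each array, as log2 intensity on the vertical axis. Points are single arrays (grey DMSO, red ATRA, 3 each), and bars give the mean and SD of a group. The red points lie above the grey for ULBP3 and ICAM1 and below them for the other 5 genes, with no overlap.

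ULBP3, a GPI-anchored ligand of NKG2D, had intensities of 15.9, 10.5 and 22.1 with DMSO and 65.7, 80.0 and 78.6 with ATRA. The lowest ATRA array was thus well above the highest DMSO array, and the DMSO arrays differed among themselves more, relative to their mean, than the ATRA arrays did. Group means were 16.2 ± 5.80 with DMSO and 74.8 ± 7.86 with ATRA (SD, n = 3 arrays each), and the log2 difference was 2.27 (SE 0.25, 95% interval 1.68 to 2.86). The DMSO level, 3.95 ± 0.54 on the log2 scale, lay inside the range of markers of other cell types, and the ATRA level, 6.22 ± 0.16, above all of them but KRT18. The size of the fold is therefore uncertain, and with 16 added to every intensity before taking log2 the difference was 1.51. Leaving out 1 array gave differences of 1.99 to 2.53.

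Its relatives did not pass. Of 8 listed NKG2D ligands 7 were measured, and of the 6 other than ULBP3, 0 passed and 1 had an unadjusted p under 0.05 (limma). That gene was ULBP1, at 4.88, 4.62 and 5.04 with DMSO and 6.27, 7.31 and 6.28 with ATRA. Its log2 difference of 0.45 (SE 0.10) did not pass (adjusted p = 0.0617, and 0.0480 to 0.187 over the alternatives), at a signal near the lower end of the range of markers of other cell types. RAET1L, another ligand of this family, differed by -0.20 (adjusted p = 0.411). MICA and MICB are named here after their values were seen. MICB was at 573, 572 and 583 with DMSO and 571, 596 and 560 with ATRA, so its groups overlapped, and its difference was -0.0023 (95% interval -0.20 to 0.19; adjusted p = 0.993). MICA was at 94.7, 100.4 and 117 with DMSO and 83.0, 95.4 and 101 with ATRA, a difference of -0.16 (adjusted p = 0.565). ULBP and RAET1 genes are close in sequence, and an array may not fully separate them.

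Among the adhesion ligands, ICAM1 was higher and CD58 lower. ICAM1, the ligand of LFA-1, was at 202, 242 and 254 with DMSO and 372, 383 and 322 with ATRA. All 3 ATRA values were above the DMSO values, and the gap between the nearest arrays was 0.34 on the log2 scale. Means were 233 ± 27.2 and 359 ± 32.7 (SD, n = 3 each), a difference of 1.55-fold or 0.63 on the log2 scale (SE 0.12, 95% interval 0.34 to 0.92).

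CD58, the ligand of CD2, was at 35.2, 32.9 and 40.2 with DMSO and 19.7, 21.5 and 22.8 with ATRA. The ATRA arrays were all lower, by 1.69-fold in the mean (36.1 ± 3.73 against 21.3 ± 1.53, SD, n = 3 each; log2 difference -0.76, SE 0.11, 95% interval -1.02 to -0.49). Both group levels, 5.17 and 4.41 on the log2 scale, lay inside the range of markers of other cell types. The size is therefore uncertain, and it was -0.48 with 16 added to every intensity.

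Of 12 listed adhesion ligands 9 were measured, and of the 7 other than ICAM1 and CD58, 1 fell and 6 did not pass. ALCAM, a ligand of CD6 on T cells, fell from 28.2, 33.8 and 26.9 with DMSO to 20.7, 17.0 and 18.9 with ATRA, a log2 difference of -0.65 (SE 0.13, adjusted p = 0.0377), also at signals inside the range of other cell type markers. Its call was lost in all 6 fits with 1 array left out (adjusted p 0.0693 to 0.109) and ranged from 0.0147 to 0.121 over all alternatives.

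CD48, a GPI-anchored protein of the SLAM family and the ligand of CD244, was at 290.0, 304 and 331 with DMSO and 205, 175 and 202 with ATRA. The groups lay apart by 0.50 on the log2 scale at their nearest arrays. Means were 308 ± 20.8 and 194 ± 16.4 (SD, n = 3 each), 1.59-fold lower with ATRA (log2 difference -0.67, SE 0.11, 95% interval -0.92 to -0.42). The family has 9 listed genes, of which 8 were measured. Of the 7 other than CD48, 0 passed and 2 had an unadjusted p under 0.05 (limma). LY9 (CD229), a receptor that binds itself, was at 260, 265 and 223 with DMSO and 189, 164 and 190 with ATRA, with no overlap. Its difference of -0.46 (SE 0.11) did not pass (adjusted p = 0.0762, and 0.0065 to 0.214 over the alternatives). SLAMF7, the target of the myeloma antibody elotuzumab, was at 1236, 1286 and 1295 with DMSO and 1025, 1072 and 977 with ATRA, again with no overlap. Its difference of -0.31 (SE 0.087) did not pass either (adjusted p = 0.112, and 0.00069 to 0.265 over the alternatives).

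CD70, the ligand of CD27, was at 292, 293 and 307 with DMSO and 163, 209 and 148 with ATRA. The DMSO arrays were close to each other, and the second ATRA array was the nearest to them, 0.48 lower on the log2 scale. Means were 297 ± 8.64 and 173 ± 31.9 (SD, n = 3 each), 1.74-fold lower with ATRA (log2 difference -0.80, SE 0.14, 95% interval -1.12 to -0.47). Without that array (ATRA replicate 2) the difference was -0.94, the largest of the 6 fits with 1 array left out. Of 10 listed costimulatory genes of the TNF superfamily CD70 alone was measured, and the rest were not analysed here. Of 12 listed death receptors and their ligands 1 was measured, the cytokine TNF, at a difference of 0.11 (adjusted p = 0.681).

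Both measured B7 genes of the set were lower. CD276 was at 59.2, 57.0 and 61.6 with DMSO and 42.7, 37.3 and 41.3 with ATRA. All ATRA values were below the DMSO values, with means of 59.3 ± 2.27 and 40.5 ± 2.79 (SD, n = 3 each), a 1.47-fold difference (log2 -0.55, SE 0.095, 95% interval -0.77 to -0.33). The ATRA level of CD276, 5.34 on the log2 scale, was inside the range of markers of other cell types.

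ICOSLG was at 78.9, 73.7 and 79.2 with DMSO and 49.9, 52.1 and 54.6 with ATRA. The spread within each group was small against the gap of 0.43 on the log2 scale between them. Means were 77.3 ± 3.08 and 52.2 ± 2.35 (SD, n = 3 each), 1.48-fold lower with ATRA (log2 difference -0.57, SE 0.089, 95% interval -0.78 to -0.36). A near-identical copy of ICOSLG, LOC102723996, is annotated on the same chromosome in GRCh38.p14. Whether that entry is a separate locus, and so whether the signal is that of ICOSLG alone, was not examined.

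The other B7 genes did not pass. Of 18 listed B7 and butyrophilin genes 11 were measured, and of the 9 other than CD276 and ICOSLG, 0 passed and 2 had an unadjusted p under 0.05 (limma). Both of these were higher with ATRA. CD86, a ligand of CD28 and CTLA4, was at 121, 137 and 134 with DMSO and 152, 187 and 200.0 with ATRA, with no overlap, and its difference of 0.45 (SE 0.13) did not pass (adjusted p = 0.111, and 0.0196 to 0.262 over the alternatives). CD274, the checkpoint ligand PD-L1, was at 22.7, 18.0 and 18.0 with DMSO and 26.4, 24.5 and 27.2 with ATRA. Its difference of 0.42 (SE 0.12) did not pass (adjusted p = 0.119, and 0.0474 to 0.292 over the alternatives), at a signal inside the range of markers of other cell types.

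**Figure D2:**
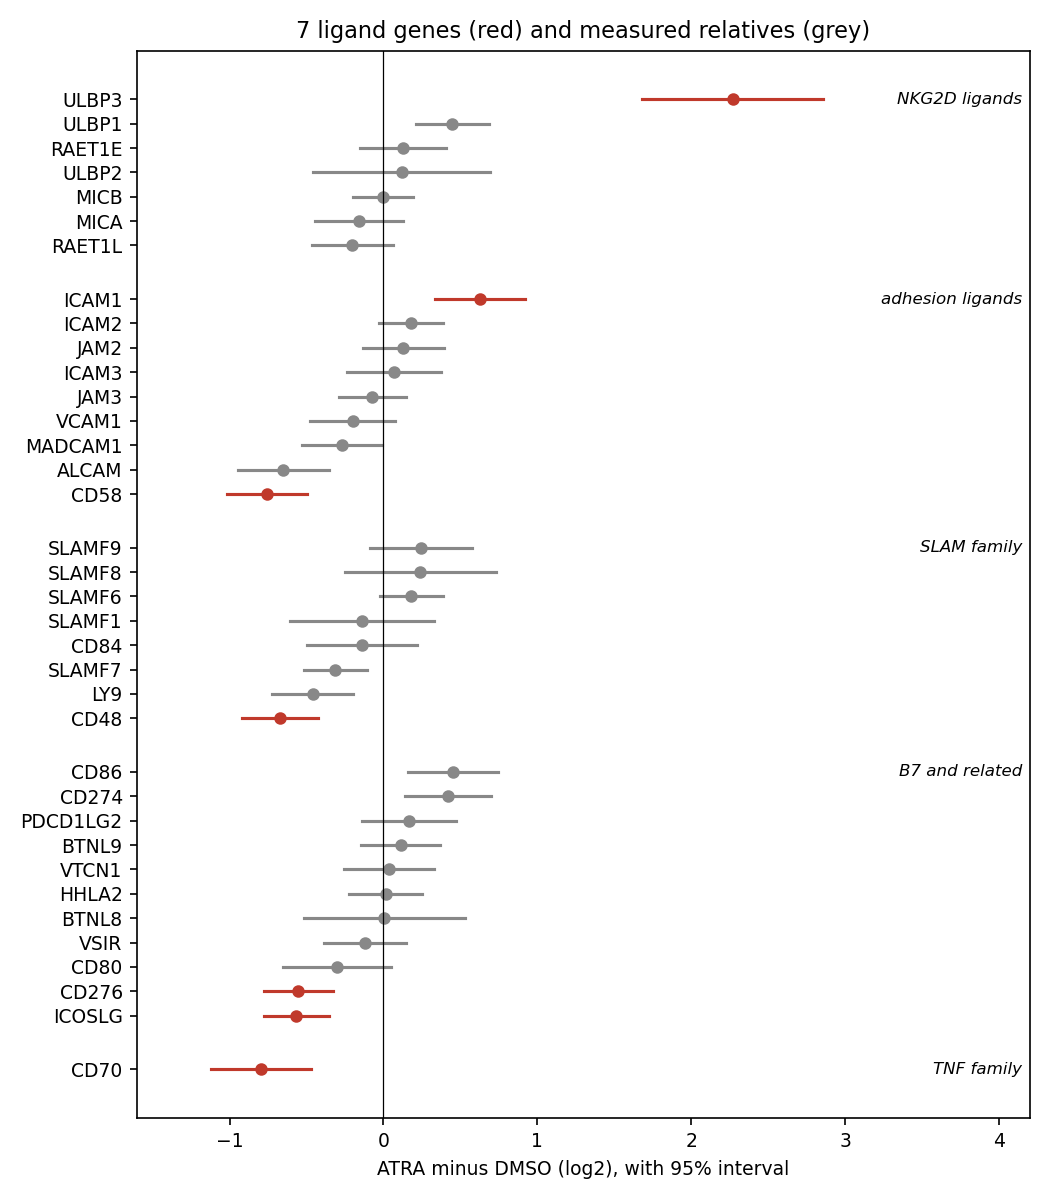
Log2 difference of ATRA minus DMSO with its 95% interval from limma for the 7 ligand genes (red) and the measured relatives of the same lists (grey), by family. ULBP3 stands at 2.27 while the other NKG2D ligands lie between -0.20 and 0.45, and the other B7 genes lie between -0.30 and 0.45 against -0.55 for CD276 and -0.57 for ICOSLG.

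Of the measured partners that these ligands bind, and of genes that attach or release them, none passed in the fit over all genes. CD28, ADAM17 and ADAM10 did under some alternatives. For CD28 and ADAM17 these included eBayes with trend and robust, where 1327 genes passed against 565. CD47, from the list of phagocytosis and complement genes, passed there and with 16 added to every intensity. Of 11 listed receptors 5 were measured, with 0 at an unadjusted p under 0.05 (limma). CD28, the receptor of CD86, was bright in these cells, at 1943, 1956 and 1949 with DMSO and 1758, 1719 and 1795 with ATRA (log2 difference -0.15, adjusted p = 0.406, and 0.0110 to 0.641 over the alternatives). CD27 (0.25, adjusted p = 0.594), ICOS (-0.07, adjusted p = 0.854) and HCST, the signalling partner of NKG2D (0.05, adjusted p = 0.911), had mean log2 levels inside the range of other cell type markers. CD2 (-0.19, adjusted p = 0.406) is itself 1 of those markers, so its place in that range tells nothing about its level. Among 7 measured of 10 proteases that can release surface ligands, 0 passed and 3 had an unadjusted p under 0.05, where 17.9% of all genes did. The differences ran from -0.28 to -0.07, against a median of -0.01 over all genes, and nothing is read from their shared direction. The largest were those of ADAM17 (-0.28, adjusted p = 0.204, and 0.0466 to 0.408 over the alternatives) and ADAM8 (-0.25, adjusted p = 0.247, and 0.0580 to 0.466). ADAM10, named after its value was seen, differed by -0.21 (adjusted p = 0.242, and 0.0132 to 0.441). Among 6 measured of 29 genes of GPI anchor synthesis, on which ULBP3 and CD48 depend, 0 passed and 1 had an unadjusted p under 0.05, DPM3 (0.33, adjusted p = 0.190), followed in size by PGAP3 (-0.19, adjusted p = 0.428). Among 4 measured of 7 phagocytosis and complement genes, 0 passed and 1 had an unadjusted p under 0.05, CD47 (-0.21, adjusted p = 0.252, and 0.0290 to 0.450 over the alternatives), which signals to macrophages not to engulf the cell, while its receptor SIRPA differed by 0.17 (adjusted p = 0.758).

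A list of 20 other NK cell ligands also holds a receptor, CRTAM. Among its 9 measured genes, CRTAM included, 1 fell and 8 did not pass, with 3 at an unadjusted p under 0.05 (limma), where 17.9% of all genes were. Besides CADM1, these were CEACAM1 (0.58, adjusted p = 0.223) and CD99 (-0.42, adjusted p = 0.145), named after their values were seen. CADM1, an adhesion protein bound by CRTAM on NK and T cells, fell from 94.9, 102 and 89.8 with DMSO to 32.7, 41.2 and 27.5 with ATRA (log2 difference -1.52, SE 0.15, adjusted p = 0.00307), and it passed whichever array was left out (adjusted p 0.0043 to 0.0220). Its ATRA level, 5.06 on the log2 scale, was inside the range of markers of other cell types. The size is therefore uncertain, and it was -1.17 with 16 added to every intensity and -1.13 with the mean of its probe sets. Over all lists of relatives, receptors and processing genes, 61 of 137 genes were measured. CADM1 and ALCAM were the 2 that passed, 3.28% of the 61 against 3.80% of all genes. The median difference of the 61 was -0.04, against -0.01 for all genes, and 15 (24.6%) had an unadjusted p under 0.05, 5 higher and 10 lower, where 17.9% of all genes did, 7.52% higher and 10.4% lower.

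**Figure D3:**
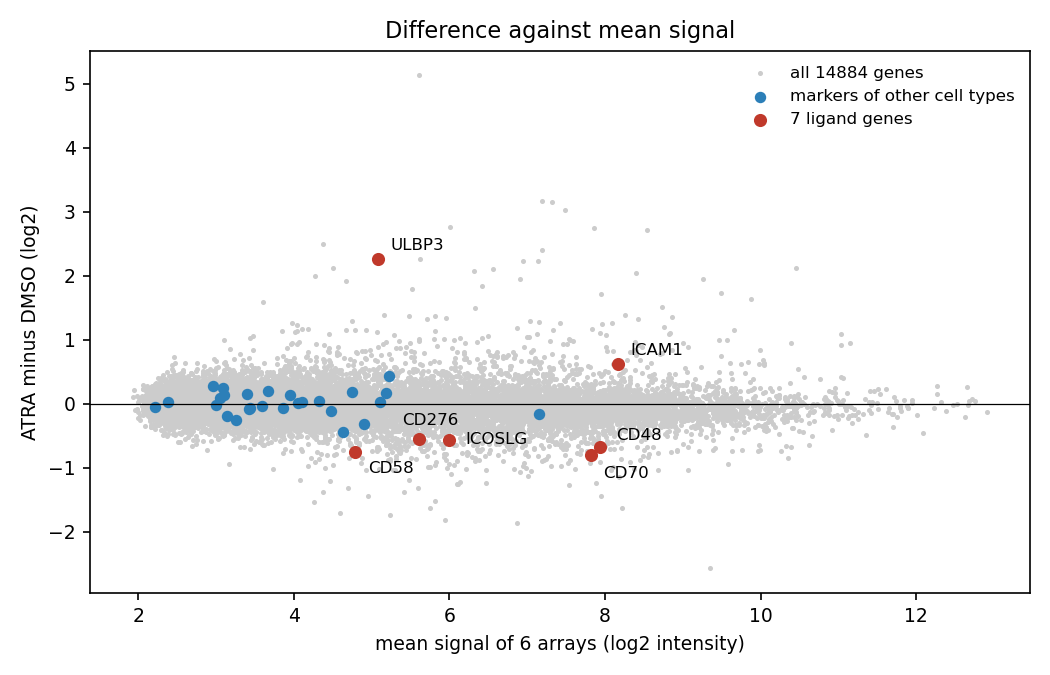
Log2 difference of ATRA minus DMSO against the mean log2 intensity of the 6 arrays for all 14884 genes (grey), with 27 markers of other cell types in blue and the 7 ligand genes in red. ULBP3 and CD58 lie inside the horizontal range of the blue points, and CD276 and ICOSLG do so only if KRT18 is counted. ICAM1, CD48 and CD70 lie to the right of all blue points.

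The 7 genes were set beside the 11916 protein-coding genes to find those whose values moved most alike over the 6 arrays. Likeness was the root mean square difference of log2 values after each gene was centred on its mean, so that 0 is an identical pattern. It rests on the difference between the groups and on the scatter of arrays within each group, and it is a description with no test. Nearest to ULBP3 were SCD, which makes oleate (distance 0.31, log2 difference 2.13), and PRR15, a proline-rich protein (0.31, log2 difference 2.07). Nearest to ICAM1 were SKIL, a corepressor of TGF-beta signalling (0.072, log2 difference 0.59), and DDAH1, which degrades methylated arginine (0.084, log2 difference 0.57). ULBP3 thus had no gene as close to it as ICAM1 had. Scatter within a group adds to such a distance, and the log2 SD with DMSO was 0.54 for ULBP3 and 0.17 for ICAM1. The part of that scatter in the larger distance was not tested.

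Nearest to CD58 were FEN1, a flap endonuclease of DNA replication (distance 0.065, log2 difference -0.66), and CDC25A, a phosphatase that drives the cell cycle (0.074, log2 difference -0.86). Nearest to CD48 were TEX30 (0.040, log2 difference -0.62) and EXO1, an exonuclease of DNA repair (0.058, log2 difference -0.62). TEX30 was also the nearest to CD276 (0.044), followed by PRPSAP1, an associate of phosphoribosyl pyrophosphate synthetase (0.047, log2 difference -0.53). CD70 had as neighbours FOS, a transcription factor of the AP-1 complex (0.084, log2 difference -0.69), and FCHO2, an initiator of endocytosis (0.087, log2 difference -0.71). ICOSLG had RNF19B, a ubiquitin ligase (0.044, log2 difference -0.60), and PRRG4, a membrane protein (0.044, log2 difference -0.64). FOS has several probe sets, and with their mean its difference was -0.44.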

How the data were processed

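The values are those of 6 arrays hybridised with biotin-labelled RNA, prepared with a whole-transcript reagent kit per the labels' protocols. The authors deposited intensities that are linear, with 1 value per array for each probe set, from 2.53 to 14038, with 0 values at or below 0. RMA and limma appear in the submitters' processing notes without version or role, and the genome build is not given in the sources used here.

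Log2 was taken with no pseudocount. Of 53617 probe sets, 16098 (30.0%) carry 1 symbol in the platform annotation, 0 carry several and 37519 are unnamed here, so many relatives of the ligand genes stay unanalysed. Entrez IDs matched all 16098 to RefSeq genes on GRCh38.p14, and 0 symbols changed. The probe set with the highest mean stood for each of 14884 symbols; each of the 7 ligand genes has 1.

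ATRA and DMSO were compared with limma 3.58.1 in R 4.3.3 (lmFit, eBayes, two-sided, no block, Benjamini-Hochberg over all 14884 genes, threshold 0.05), a step tested on simulated data. Folds are ratios of geometric means, while the intensity means printed beside them are arithmetic, so their ratio can differ slightly from the fold. SDs are over 3 arrays. The genes and lists were chosen with earlier results of these data known. Named were the 7 genes, in each list up to 4 genes past the threshold or otherwise the 2 with the largest difference, all measured receptors and the 2 genes most alike to each. Alternatives were the replicate block, leaving out each array, filters that drop the dimmer 25% or 50% of genes, normalization to a common median, by quantiles or by cyclic loess, 16 added to intensities, array weights, eBayes with trend and robust, and probe sets averaged per symbol or tested singly.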

Additional observations from a re-analysis of the deposited data

How the results depend on the processing

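The 7 ligand genes kept their direction under each alternative run. With 1 array left out, the log2 differences were 1.99 to 2.53 for ULBP3, 0.53 to 0.71 for ICAM1, -0.82 to -0.68 for CD58, -0.71 to -0.60 for CD48, -0.94 to -0.69 for CD70, -0.59 to -0.50 for CD276 and -0.60 to -0.53 for ICOSLG. Adding 16 to intensities, which shrinks dim differences by construction, gave 1.51 for ULBP3, -0.48 for CD58, -0.42 for CD276 and -0.45 for ICOSLG. The count of all genes past the threshold was 565, and it was 207 to 317 with 1 array left out, 200 with the replicate block, 1143 without the dimmer 50% of genes, 1218 with 16 added and 1327 with eBayes with trend and robust. Of the 7 ligand genes, 1 to 3 passed with 1 array left out and 2, ULBP3 and CD58, with the replicate block. Those fits have fewer arrays or fewer residual degrees of freedom, and the cause of the lost calls was not tested. Of the relatives, 2 passed, against 1 with any 1 array left out, 1 with the replicate block, 6 without the dimmer 50% of genes, 7 with 16 added and 11 with trend and robust. The filtered fit also tests fewer genes, and the cause of these changes was not tested. Deviations of same-numbered arrays from their group means correlated at 0.0087 to 0.017, so the numbers were not taken as pairs, although each array correlated best with its own number, a hint from the data and not the design. ULBP3 with DMSO, CD58 in both groups and CD276 with ATRA had signals inside the range of markers of other cell types. All of these signals were above the markers' median log2 level of 3.68. Lying inside that range limits what their fold changes can show.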

Other observations

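The 7 ligand genes lie in families that arose by duplication, so the genes next to them in RefSeq order were set beside them, a look chosen after the data were seen. Of the 5 nearest protein-coding genes on either side, 70 in all, 44 were measured. Of these 1 passed limma's adjusted p of 0.05 (2.27%, against 3.80% of all genes), and their median difference was -0.06 on the log2 scale. That gene was TRIP10, an adaptor between CDC42 and the actin cytoskeleton that lies 4 genes from CD70, with a difference of -0.82 (adjusted p = 0.0060). C3 (0.10, adjusted p = 0.717) and GPR108 (-0.13, adjusted p = 0.646), which lie between CD70 and TRIP10, did not pass, and TNFSF14 and TNFSF9, the nearest relatives of CD70, were not analysed here.

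ULBP3 stands at the end of a cluster with RAET1L, ULBP1, ULBP2 and RAET1E, whose differences were -0.20, 0.45, 0.12 and 0.13, none past the threshold. Next to ICAM1, MRPL4, a mitochondrial ribosomal protein, differed by -0.20 (adjusted p = 0.331), and S1PR2, a receptor of sphingosine phosphate that lies 2 genes from ICAM1, by 0.54 (adjusted p = 0.0958). CD48 sits among SLAMF1 (-0.14), CD84 (-0.14), SLAMF6 (0.18), SLAMF7 (-0.31) and LY9 (-0.46), where the 2 genes on the side of SLAMF7 were lower without passing. CD2, the receptor of CD58, lies 2 genes from it and differed by -0.19 (adjusted p = 0.406). Next to CD276, NPTN, a neuronal adhesion protein, differed by -0.02 (adjusted p = 0.943). PML, known for its fusion to a retinoic acid receptor in promyelocytic leukaemia, lies 5 genes from CD276 and differed by -0.04 (adjusted p = 0.881). Next to ICOSLG, DNMT3L differed by -0.04 (adjusted p = 0.925) and GATD3 by 0.34 (adjusted p = 0.170).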
